A study of Mus musculus with 16 samples.

Results

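Chromatin accessibility was examined at 10 genes of T cell inhibition and exhaustion, comprising the inhibitory receptors Pdcd1, Ctla4, Lag3, Havcr2 and Tigit, the TOX factors Tox and Tox2, and the nuclear receptors Nr4a1, Nr4a2 and Nr4a3. The genes were taken by name from GENCODE mouse release M21 on GRCm38, out of 21938 protein-coding genes, and every peak that overlapped a gene or the 20 kb to either side of it was read in each library. The data were ATAC-seq peak lists from 16 libraries in 4 groups of 4. ATAC-seq marks open chromatin by the sites where a transposase can insert adapters. Wild-type (WT, labelled TPdh+/+) effector T cells formed the WT TE group and TPdh-/- effector T cells the TPdh-/- TE group. Wild-type memory T cells formed the WT TM group and TPdh-/- memory T cells the TPdh-/- TM group. The labels gave only genotype and cell type, and the study's methods gave the rest. TPdh-/- mice carried a floxed Pdha1 gene, which encodes a subunit of the pyruvate dehydrogenase complex, and a CD4-Cre transgene, which is active in both CD4 and CD8 lineage T cells. Mice of both sexes aged 8 to 12 weeks were used. Differentiation is described for OT-I T cells, which carry a receptor for an ovalbumin peptide, with 3 days of peptide activation and then 4 days in 10 ng/mL of IL-2 for TE or of IL-15 for TM. For the ATAC-seq libraries themselves the study names splenic T cells. Cells made this way are in vitro populations and none came from an infection or a tumour. The labels did not say whether the 4 libraries of a group came from separate mice, so the tests measured the spread between libraries, which may be technical.

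Inhibitory receptors are surface proteins that dampen signals from the T cell receptor. PD-1 (Pdcd1), CTLA-4, LAG-3, TIM-3 (Havcr2) and TIGIT are induced on activation and are held at high levels on exhausted T cells in chronic infection and tumours. TOX and its relative TOX2 are HMG-box proteins linked to the exhausted state, and the NR4A factors are orphan nuclear receptors induced by T cell receptor signalling and tied to the same program.

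The sites that carried the description are shown here with 6 sequences from the RefSeq assembly of GRCm38, given on the plus strand from 5′ to 3′. A site was a region made by merging overlapping peaks of all 16 libraries, and its position was the distance of its median summit from the annotated gene start, positive in the direction of transcription. Capitals mark a match, on either strand, to a short motif: TGTGGT for RUNX factors, GGAAA for NFAT factors, TGANTCA for AP-1, TTCCGG for ETS factors, GGGCGG for SP and KLF factors and AAAGGTCA for NR4A factors. The first sequence is the site held by the most libraries among those away from other genes' starts, lying downstream of Pdcd1 at chr1:94035242-94035541.
Pdcd1 +17.16 kb: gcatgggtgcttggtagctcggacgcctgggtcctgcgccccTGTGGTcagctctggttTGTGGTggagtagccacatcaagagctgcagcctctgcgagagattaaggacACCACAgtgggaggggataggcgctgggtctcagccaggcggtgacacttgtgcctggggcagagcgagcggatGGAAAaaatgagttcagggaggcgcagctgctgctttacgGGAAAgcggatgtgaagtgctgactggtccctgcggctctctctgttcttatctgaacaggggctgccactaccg
The next lines give the site upstream of Nr4a1 that 3 WT TE libraries and 1 other library held (chr15:101246371-101246491), the intronic Tox2 site that 4 TPdh-/- libraries held (chr2:163253472-163253592) and the site at Lag3 that 14 libraries held and that lies at the promoter of its neighbour Mlf2 (chr6:124931220-124931340).
Nr4a1 -7.84 kb: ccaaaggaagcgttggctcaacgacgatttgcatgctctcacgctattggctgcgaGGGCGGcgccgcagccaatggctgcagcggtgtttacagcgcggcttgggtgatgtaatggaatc
Tox2 +50.41 kb: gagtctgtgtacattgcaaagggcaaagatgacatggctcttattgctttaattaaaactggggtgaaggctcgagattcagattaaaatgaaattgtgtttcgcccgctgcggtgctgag
Lag3 -19.58 kb: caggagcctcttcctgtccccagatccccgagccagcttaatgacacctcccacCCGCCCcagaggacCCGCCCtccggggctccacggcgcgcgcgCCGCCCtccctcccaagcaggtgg
The last pair shows simple repeats under strong summits, runs of C and of CA in an intron of Nr4a2 (chr2:57117614-57117734) and a TC repeat under the strongest peak of Tox (chr4:6963214-6963334).
Nr4a2 +6.33 kb: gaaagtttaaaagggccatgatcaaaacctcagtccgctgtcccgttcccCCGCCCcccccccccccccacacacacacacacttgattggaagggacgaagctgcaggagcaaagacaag
Tox +28.28 kb: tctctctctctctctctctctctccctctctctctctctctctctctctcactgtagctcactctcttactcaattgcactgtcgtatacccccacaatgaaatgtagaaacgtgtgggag

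The libraries differed widely in how many peaks they listed. WT TE libraries listed 2290 to 19234 peaks, WT TM 13304 to 54892, TPdh-/- TE 32906 to 78635 and TPdh-/- TM 60189 to 86637. Background coverage, taken as the lowest local background in fragments per base solved from a library's peaks, ran from 0.636 to 1.55 in WT TE and from 0.173 to 0.572 in the other 12 libraries. The lowest summit listed had 5 to 9 fragments in the WT TE libraries and 3 to 5 elsewhere. Peak number and group moved together, and their parts in the differences below cannot be told apart. A peak in Pdha1 itself was listed in 1 library of each WT group, 2 of TPdh-/- TE and 3 of TPdh-/- TM, so the peak lists do not check the deletion. Promoter peaks, with 1 kb taken to each side of any annotated start, were present in 23.2% of the 112 gene and library pairs for 7 T cell markers (Cd3e, Cd3d, Cd3g, Cd2, Thy1, Cd8a and Cd8b1) and in 5.62% of the 160 pairs for 10 B, myeloid and NK cell markers. The promoter of Cd4 held no peak in any library, and neither did that of the T cell marker Cd2. Over the wider 20 kb windows the shares of pairs were 65.2% for the T cell markers and 68.1% for the markers of other lineages, so window peaks did not separate the lineages. At the 10 markers of other lineages, 0 of 40 pairs had a promoter peak in WT TE and 3 of 40 in each other group, and the part of other cells in the results was not tested.

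A gene was held when at least 1 peak overlapped its window. WT TE 1 to 4 held 7, 9, 3 and 4 of the 10 genes, and TPdh-/- TE 1 to 4 held 8, 8, 10 and 10. WT TM 1 to 4 held 10, 4, 4 and 10, and TPdh-/- TM 1 to 4 held 10, 9, 10 and 10. The ranges of WT and TPdh-/- overlapped in both cell types. Effector libraries held 5.75 ± 2.75 genes on average without the deletion and 9.0 ± 1.15 with it (SD, n = 4 libraries each). Memory libraries held 7.0 ± 3.46 without it and 9.75 ± 0.5 with it (SD, n = 4 libraries each). Over all protein-coding genes the share held averaged 38.1%, 72.3%, 57.2% and 82.6% in the same order. The plot of the 10 genes against all genes shows both together. When each list was trimmed to its 2290 peaks of lowest q-value, the length of the shortest list, the means became 2.25, 1.5, 1.25 and 1.5 genes, and the difference of TPdh-/- TE from WT TE turned from 3.25 more to 0.75 fewer genes. Over all genes the trimmed lists held 16.7%, 8.05%, 7.87% and 8.8%, so the share in TPdh-/- TE was below that in WT TE there too.

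**Figure D1:**
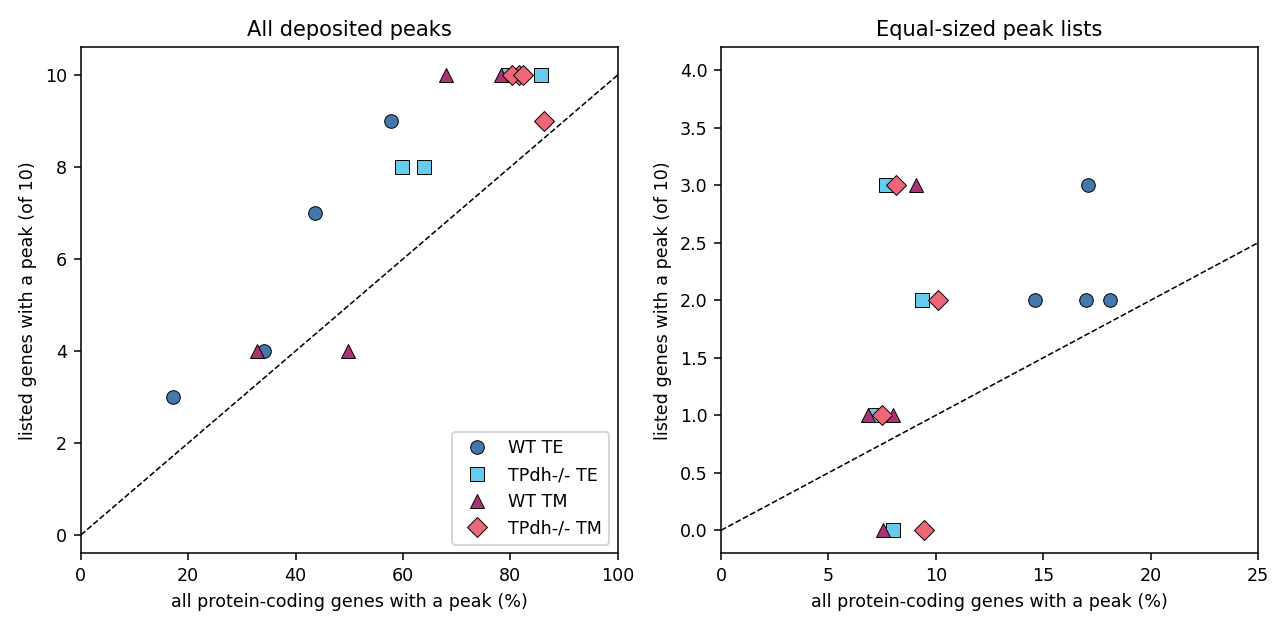
Each point is a library, with the share of all protein-coding genes that had a peak in the gene or 20 kb to either side (%) on the x axis and how many of the 10 listed genes had one on the y axis, for all deposited peaks (left) and for lists trimmed to 2290 peaks (right, enlarged axes). The dashed line marks equal shares, and on the left 15 of the 16 libraries sit above it, WT TM 2 being the exception with 4 of 10 genes against 49.7% of all genes.

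Peaks were denser in these windows than in gene windows in general in every library but WT TM 3. The 10 windows held 3.01 to 17 summits per megabase in WT TE and 36.1 to 47.1 in TPdh-/- TM, and the ratio to the density over all gene windows was 1.79 to 2.16 in WT TE, 1.15 to 1.57 in TPdh-/- TE, 0.936 to 1.63 in WT TM and 1.31 to 1.78 in TPdh-/- TM. Of 395 peaks in the 10 windows, 39 (9.87%) had their summit within 1 kb of the start of another gene, chiefly at Lag3, Nr4a1 and Havcr2. The fold enrichment of the 395 peaks, the summit pileup over the local background with 1 added to each, ran from 2.99 to 10.7 with a median of 4.23.

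Pdcd1, on chromosome 1 (94038305 to 94052553, minus strand), was the receptor gene with the most reproducible site away from other genes' starts. A peak was present in 15 of 16 libraries, and 12 of them held the site 17.16 kb downstream of the gene start, which lies between genes and past the end of Pdcd1. The annotated start nearest to the site was that of Neu4, at 14899 bp, and which gene the site acts on was not tested. Regulatory elements of Pdcd1 are known on both sides of the gene. In WT TE 1 to 4 the fold enrichment there was 5.47, 8.87, 4.37 and 6.09, from summits of 15, 15, 13 and 18 fragments, and no other peak was listed in the Pdcd1 window of any WT TE library. TPdh-/- TE 1 and 4 held the site at fold 4.05 and 6.24, while libraries 2 and 3 did not. WT TM 1 and 4 held it at 7.8 and 4.21, while libraries 2 and 3 did not. TPdh-/- TM 1 to 4 held it at 9.12, 4.34, 5.58 and 9.88. All WT TE and all TPdh-/- TM libraries thus held it, and where it was held the values of the 4 groups overlapped. A difference of 4 against 2 libraries gave a Fisher's exact p of 0.429 in each of the 4 comparisons. The 300 bases at the summit had no repeat-masked base and held 3 RUNX and 2 GGAAA matches, marked in the sequence above. The RUNX motif was present in 18.2% and GGAAA in 53.6% of the 9244 regions held by at least 4 libraries genome-wide. Peaks at the Pdcd1 promoter were present in 3 libraries, WT TM 1 and TPdh-/- TM 2 and 3, and in no TE library. In TPdh-/- TM the Pdcd1 window held 2, 4, 4 and 3 peaks against 3, 0, 1 and 1 in WT TM, a mean of 2.0 more (exact permutation p = 0.0857, two-sided).

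**Figure D2:**
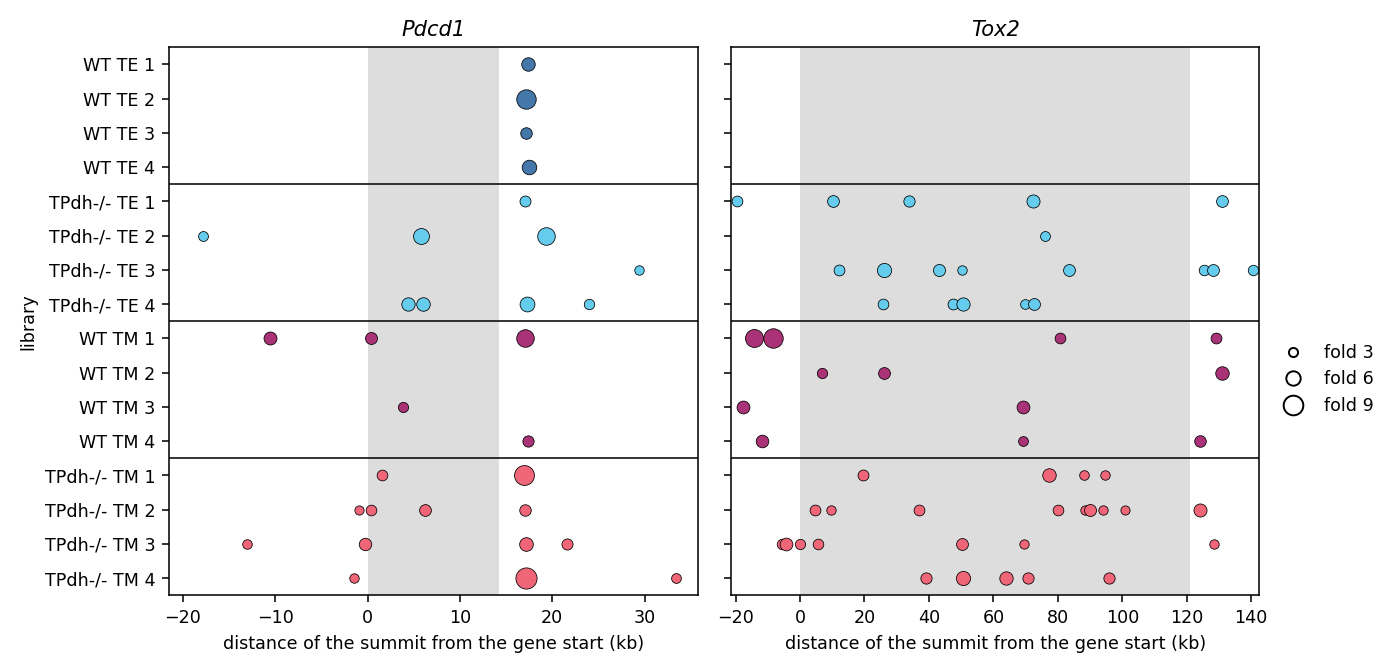
Summits of all peaks at Pdcd1 (left) and Tox2 (right) by library, with distance from the gene start in kb on the x axis, the gene body shaded, and point size growing with fold enrichment. All 4 WT TE libraries have a single Pdcd1 peak about 17.16 kb from the start and none at Tox2.

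Tigit, on chromosome 16 (43648867 to 43664146, minus strand), was held by the fewest libraries, 10 of 16, and was the gene whose own promoter most often held a peak, in 7 libraries. The promoter site, at -0.24 kb, was held by WT TE 2 at fold 4.93, TPdh-/- TE 1 at 3.36 and WT TM 1 at 8.12, and by TPdh-/- TM 1 to 4 at 4.92, 3.96, 4.54 and 3.89. It was held by all TPdh-/- TM libraries and by 1 library of each other group, with summits of 4 to 10 fragments (Fisher's exact p = 0.143 for 4 against 1). The highest single value was in WT TM 1.

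Lag3, on chromosome 6 (124904361 to 124911705, minus strand), held a peak in all 16 libraries, in a window that also takes in parts of Cd4, Ptms and Mlf2. Of its 43 peaks, 18 lay within 1 kb of another gene's start. The site at -19.58 kb, 106 bp from the start of Mlf2, was held by 14 libraries at fold 3.98 to 8.53, and its 300 bases held 6 GGGCGG matches, of which the stretch shown has 3. In WT TE 1, 3 and 4 every peak in the Lag3 window lay near another gene's start, so that 1 WT TE library against 4 in each other group held Lag3 away from such starts (Fisher's exact p = 0.143 against TPdh-/- TE and against WT TM). The strongest peak of any of the 10 genes, fold 10.7 in TPdh-/- TM 4, had its summit at -6.16 kb, in the site whose nearest start is that of Ptms. A peak between Lag3 and Cd4, 7.87 kb downstream of the Lag3 start, was held by TPdh-/- TE 4 at 6.27, WT TM 1 at 6.64 and TPdh-/- TM 2 and 3 at 3.78 and 5.5, and by no WT TE library. The Lag3 promoter was held by 5 libraries.

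Havcr2, on chromosome 11 (46454935 to 46481255, plus strand), was held by 12 libraries. WT TE 1 to 4 listed 1, 1, 0 and 1 peaks, TPdh-/- TE 2, 0, 2 and 2, WT TM 5, 0, 0 and 1, and TPdh-/- TM 2, 5, 2 and 3. The site held by 6 libraries was the start of Med7, which encodes a Mediator subunit, at fold 3.63 to 6.89. The other recurring site, 32.19 kb past the Havcr2 start, was held by 4 libraries at fold 3.52 to 7.99, and 60% of its 300 bases were repeat-masked, over a CT repeat. The strongest Havcr2 peak averaged 2.65 on the log2 fold-enrichment scale in TPdh-/- TM and 1.14 in WT TM, a window with no peak counting as fold 1, a difference of 1.52 (exact permutation p = 0.0571). Ctla4, on chromosome 1 (60887000 to 60915832, plus strand), was held by 11 libraries with 21 peaks and had no site in 4 or more libraries. Of its 19 sites 17 belonged to a single library, and its strongest peak, fold 6.48 in WT TM 4, lay at -5.3 kb in an exon of the transcript Gm38137.

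Tox2 was the gene whose libraries separated most cleanly. It lies on chromosome 2 (163203125 to 163324170, plus strand), is longer than 91.1% of protein-coding genes and with its flanks spans 161046 bp. The shares of all genes given below were not matched for window length. WT TE 1 to 4 listed 0, 0, 0 and 0 peaks in the Tox2 window. TPdh-/- TE 1 to 4 listed 5, 1, 8 and 5, WT TM 1 to 4 listed 4, 3, 2 and 3, and TPdh-/- TM 1 to 4 listed 4, 9, 7 and 5. Every library outside WT TE thus held Tox2, and neither TPdh-/- TE nor WT TM overlapped WT TE. For libraries holding a peak, 4 against 0 gave a Fisher's exact p of 0.0286 for TPdh-/- TE against WT TE (adjusted over all genes, p = 0.573) and for WT TM against WT TE (adjusted p = 1.0), where 4.98% and 1.75% of all genes passed. The exact permutation test gave 0.0286, the smallest p that 70 arrangements of 4 against 4 allow, for number of peaks and for strongest fold enrichment in both comparisons (adjusted p = 0.248 and 0.342 for TPdh-/- TE, 0.945 and 0.682 for WT TM). These passed for 11.5% and 8.35% of all genes in TPdh-/- TE against WT TE and for 3.02% and 4.19% in WT TM against WT TE. In TPdh-/- TE against WT TE the test on number of peaks no longer passed without any one of the WT TE libraries, while the other tests on Tox2 passed with each library left out in turn. For libraries holding a peak this was fixed by the split of 4 against 0, which stays complete whichever library is left out. WT TE 2, with 19234 peaks, listed more than WT TM 3, with 13304, and the latter held 2 Tox2 peaks. WT TE 1, 3 and 4 listed 8654, 2290 and 5298 peaks, fewer than any WT TM library. Background coverage was 0.636 in WT TE 2 and 0.572 in WT TM 3. The parts of list length and background in the absence of Tox2 peaks were not tested. In lists trimmed to 2290 peaks, WT TM held Tox2 in 1 library and TPdh-/- TE in none, and peaks with a −log10 q of at least 5 were present in 1 and 0 libraries.

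The Tox2 peaks did not fall at the same places. Of 49 Tox2 sites 45 belonged to a single library, and the one site in 4 libraries, in an intron 50.41 kb past the start, was held by TPdh-/- TE 3 and 4 at fold 3.18 and 5.34 and by TPdh-/- TM 3 and 4 at 4.54 and 5.89, and by no WT library. The strongest Tox2 peak, fold 8.9 in WT TM 1, was in that library alone. In TPdh-/- TM the mean number of Tox2 peaks was 6.25 against 3.0 in WT TM (exact permutation p = 0.0571), and the strongest peak averaged 2.44 and 2.56 on the log2 scale.

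Tox, on chromosome 4 (6686353 to 6991557, minus strand), is longer than 97.5% of protein-coding genes, and its window of 345205 bp held 105 of the 395 peaks. Per 100 kb of window this was 30.4 peaks over all libraries, near the 30.5 at Ctla4 and below the 57.1 at Pdcd1. WT TE 1 to 4 listed 2, 1, 0 and 0 Tox peaks and TPdh-/- TE 1 to 4 listed 8, 6, 13 and 5, with no overlap (a mean of 7.25 more, exact permutation p = 0.0286, adjusted over all genes p = 0.248). Without WT TE 3 or without WT TE 4 the test no longer passed, nor did it when peaks were counted per 10000 peaks of the library, in equal-sized lists or among peaks with a −log10 q of at least 5. WT TM 1 to 4 listed 14, 5, 0 and 4, and TPdh-/- TM 1 to 4 listed 8, 18, 12 and 9, which overlapped (a mean of 6.0 more, exact permutation p = 0.171). Sites were again scattered, 69 of 85 being held by 1 library. The site in most libraries lay in an intron 2.65 kb past the start and was held by TPdh-/- TE 1, WT TM 1 and 2 and TPdh-/- TM 1, at fold 3.52 to 7.38. The strongest Tox peak, fold 8.81 in TPdh-/- TE 3, lay in an intron at the TC repeat shown above, was held also by TPdh-/- TE 2 at 3.41, and 39.3% of its 300 bases were repeat-masked.

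**Figure D3:**
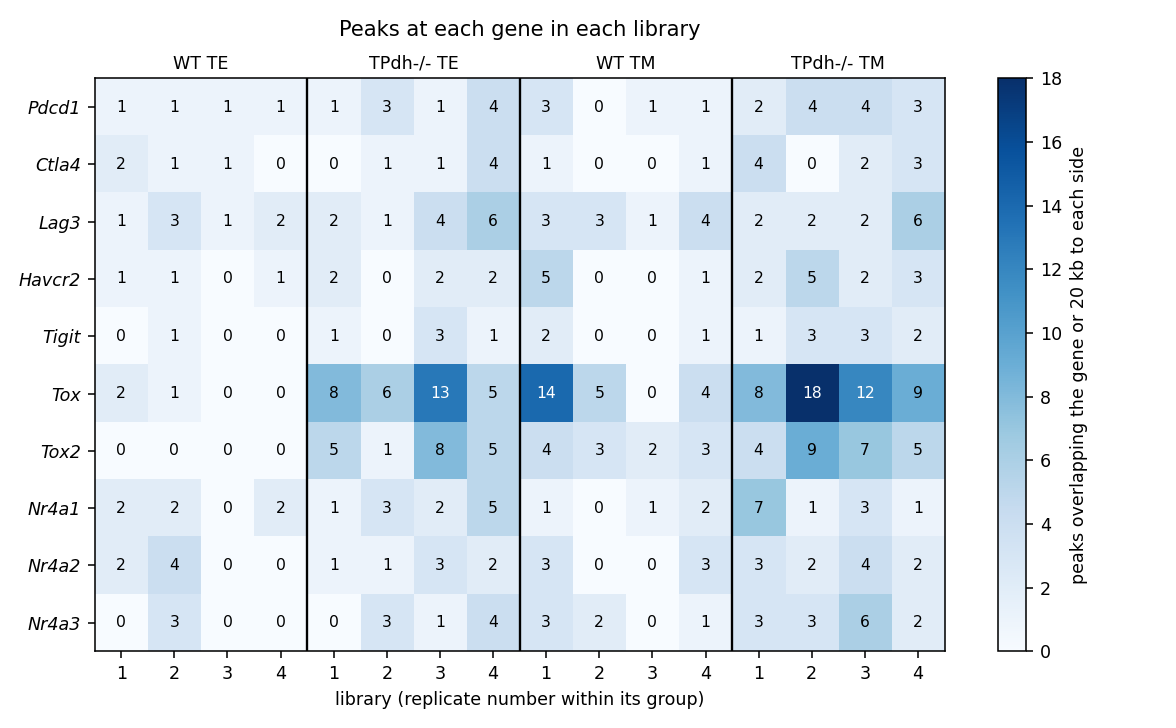
Number of peaks overlapping each gene or 20 kb to either side of it, by library, with genes in rows and the 16 libraries in columns (replicate number under each group). Tox and Tox2, the genes with the longest windows, have 0 to 2 peaks in WT TE and up to 18 and 9 elsewhere.

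The NR4A genes each had recurring sites, held by different sets of libraries. Nr4a1, on chromosome 15 (101254269 to 101274795, plus strand), was held by 14 libraries. Its site at -7.84 kb, between genes and with a GC content of 66.3%, was held by WT TE 1, 2 and 4 at fold 4.44, 5.58 and 5.82 and by TPdh-/- TM 1 at 8.25, and by no library of TPdh-/- TE or WT TM (Fisher's exact p = 0.143 for 3 against 0). The Nr4a1 site in the most libraries, 9, was 116 bp from the start of Atg101, an autophagy gene. At the gene's own starts, a peak was present in 1 TPdh-/- TE, 1 WT TM and 2 TPdh-/- TM libraries and in 0 of WT TE.

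Nr4a2, on chromosome 2 (57106830 to 57124003, minus strand), had 3 recurring sites, more than any other of the genes. A site 9.09 kb past the outermost start and 124 bp from an annotated internal start was held by WT TE 1 and 2, WT TM 4 and TPdh-/- TM 3 at fold 4.73 to 5.92. The site at 7.51 kb was held by those same 4 libraries and by TPdh-/- TE 4, at fold 3.66 to 6.69. The site at 6.33 kb, with the repeat shown above, was held by other libraries, TPdh-/- TE 1 and 3, WT TM 1 and TPdh-/- TM 1 and 4, and reached fold 8.03 to 9.43 in 4 of the 5. No library held both the site at 6.33 kb and the site at 7.51 kb, but this rests on how peaks were merged. TPdh-/- TE 4, which held the 7.51 kb site, also listed a peak at fold 3.35 that ended at 6.136 kb. The site at 6.33 kb began at 6.145 kb. Nr4a3, on chromosome 4 (48045153 to 48086447, plus strand), was held by 11 libraries. Its recurring site at -2.12 kb was held by WT TE 2 at fold 4.46, WT TM 1 at 3.67 and TPdh-/- TM 2, 3 and 4 at 5.83, 5.17 and 6.73, and by no TPdh-/- TE library. A peak at the start itself was present in TPdh-/- TE 4 at fold 8.33 and WT TM 2 at 4.94.

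**Figure D4:**
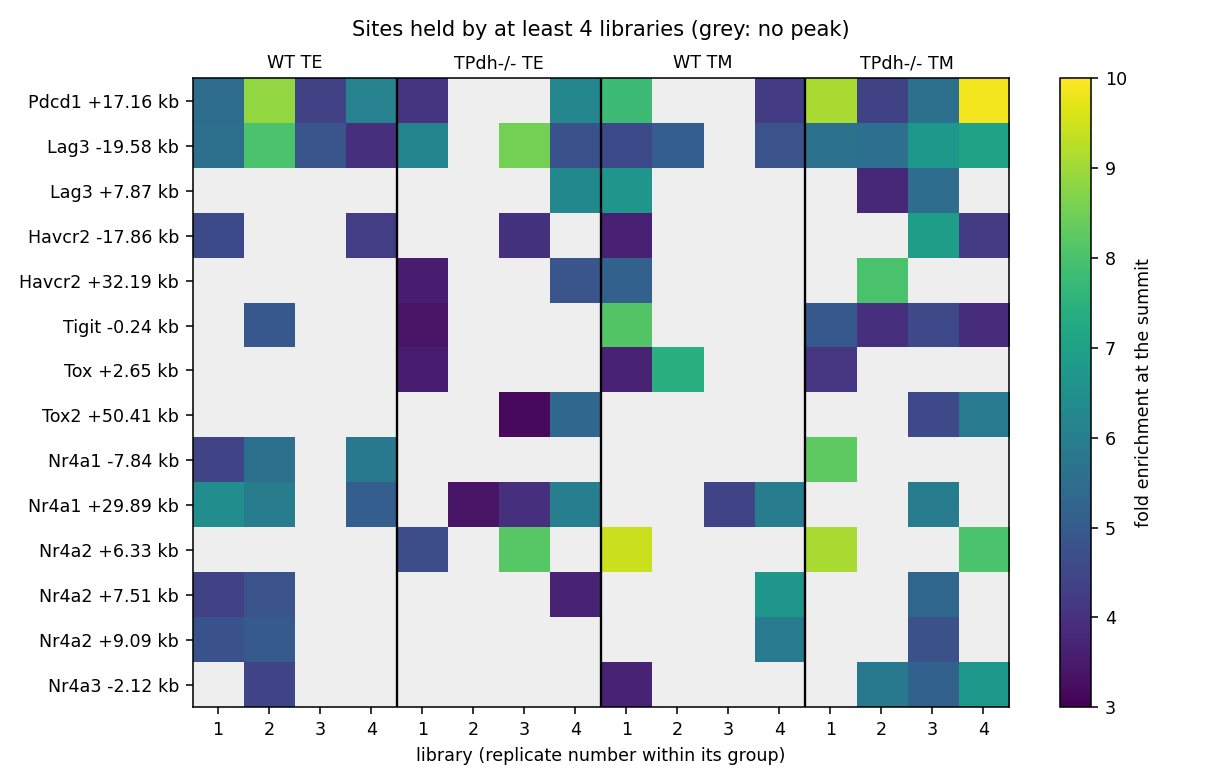
Fold enrichment at the 14 sites held by at least 4 libraries (rows, named by gene and distance from its start in kb) in the 16 libraries (columns), grey where no peak was listed. The Pdcd1 site at +17.16 kb and the Lag3 site at -19.58 kb, which lies at the Mlf2 promoter, are filled in 12 and 14 libraries, the Nr4a1 site at +29.89 kb in 9, and each of the other 11 rows in 4 to 7.

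Most sites in the 10 windows did not recur. Of 278 sites, 227 (81.7%) belonged to 1 library and 14 (5.04%) to 4 or more, while 85.8% of regions in all gene windows belonged to 1 library and 2.48% to 4 or more. The 14 sites had a median GC content of 60.4% against 44.3% for those in 1 library, and their strongest peaks had a median fold enrichment of 7.13 against 3.97, the first having more libraries to draw the strongest from. By place, 4 of the 14 lay in introns of the gene itself, 8 between genes and 2 elsewhere, and 3 were within 1 kb of another gene's start and 2 within 1 kb of the gene's own. Of the 6 motifs, AAAGGTCA was in none of the 14 and in 0.714% of all regions held by at least 4 libraries, TGANTCA in 1 (5.77%), TTCCGG in 2 (20.9%), GGGCGG in 6 (48.3%), TGTGGT in 3 (18.2%) and GGAAA in 8 (53.6%). These shares are descriptions of letters in 300 bases and say nothing of binding.

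The tests over all protein-coding genes placed few of the 10 genes past an unadjusted p of 0.05, and 0 of all genes passed after Benjamini-Hochberg adjustment in any comparison. For TPdh-/- TM against WT TM, which addressed the deletion in memory cells, 0 of the 10 were called by libraries holding a peak, by number of peaks or by strongest fold enrichment, while 1.15%, 6.55% and 3.72% of all genes were. More TPdh-/- TM than WT TM libraries held 8 of the 10 and fewer held 0, a median of 1.0 library more, beside 66.8% of all genes held in more and a median of 1.0. For TPdh-/- TE against WT TE, 1, 2 and 1 of the 10 were called (Tox2, Tox and Tox2, and Tox2) beside 4.98%, 11.5% and 8.35% of all genes, and 6 of the 10 were held in more TPdh-/- TE libraries beside 72.3% of all genes (medians 1.5 and 1.0 libraries more). For WT TM against WT TE, which compared memory with effector cells, Tox2 alone was called by each measure beside 1.75%, 3.02% and 4.19% of all genes, and 4 of the 10 were held in more and 3 in fewer TM libraries beside 56.5% and 17.1% of all genes (medians 0.0 for the 10 and 1.0 for all genes). For TPdh-/- TM against TPdh-/- TE, 0 of the 10 were called beside 0.287%, 1.98% and 2.84% of all genes, and 3 of the 10 were held in more and 0 in fewer TM libraries beside 41.9% and 13.7% of all genes. Of the 278 sites 0 separated a pair of groups fully, at 4 libraries against 0, in these comparisons, as 0.0208%, 0.0154%, 0.0154% and 0.0196% of 525048 regions genome-wide did. The first and second comparisons share no library, while the comparisons of TM with TE each share a group with both. Whether the genotype difference at Tox2 itself differed between TE and TM was not tested.

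A wider list of 34 related genes was read in the same way. It comprised other inhibitory receptors, costimulatory partners, ligands of the receptors, transcription factors linked to exhaustion and the remaining TOX genes. Of the 34, 30 were held in more TPdh-/- TE than WT TE libraries beside 72.3% of all genes, 1 in fewer beside 7.91%, and 2 passed Fisher's test, Icos, a costimulatory receptor, and Cd80, a ligand of CTLA-4, each held by 4 against 0 libraries, the median over the list being 2.0 libraries more (Fisher's test called 4.98% of all genes). The other 7 that differed by 3 libraries were Cd160 (4 against 1), Btla (4 against 1), Lair1 (4 against 1), Tnfrsf18 (4 against 1), Cd86 (4 against 1), Tbx21 (4 against 1), which encodes T-bet, and Tox3 (4 against 1), all with more TPdh-/- TE libraries. These 9 are 26.5% of the list, and 22.3% of all genes had at least 3 more TPdh-/- TE libraries. In the TM comparison 21 of the 34 were held in more TPdh-/- libraries and 2 in fewer beside 66.8% and 5.89% of all genes, with 0 called, and the ligands Cd80 (4 against 1) and Nectin2 (4 against 1) differed by 3, which is 5.88% of the list against 8.48% of all genes. Between WT TM and WT TE, Tnfrsf18 (4 against 1) and Batf (4 against 1), an AP-1 family factor, were held by 3 more TM libraries, and Nectin2 (1 against 4) by 3 fewer, which is 5.88% and 2.94% of the list against 10.7% and 0.565% of all genes. Between TPdh-/- TM and TPdh-/- TE no gene of the list differed by 3, beside 2.62% of all genes with at least 3 more and 0.433% with at least 3 fewer, and 0 were called.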

How the data were processed

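ATAC-seq had been run on 16 libraries, and titles gave each one's group and number. Per the labels and the study's methods, the authors trimmed reads with Trimmomatic, aligned them to GRCm38 with BWA (0.7.17), removed reads that mapped to several places or in pieces, or to blacklisted regions, and called peaks per library with MACS2 (2.2.7.1) on paired fragments. An offset for the transposase cut was not given in the sources used here. The authors deposited for each peak a score (−log10 q multiplied by 10, cut to a whole number), a fold enrichment, which is a ratio of summit pileup to local background, and −log10 p and −log10 q values. These depend on depth and were not rescaled between libraries. Reads were not analysed here. Pileup and background were solved from the fold enrichment and p of each peak.

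Peaks were joined to GENCODE M21 genes, with 20 kb to each side. Over all 21938 protein-coding genes, each pair of groups went through Fisher's exact test, two-sided (libraries holding a peak) and two-sided exact permutation tests of 70 arrangements (number of peaks, log2 of the strongest fold enrichment, a window with no peak counting as fold 1). Calls were at an unadjusted p under 0.05, and Benjamini-Hochberg adjustment ran over all genes. Sites were merged peaks of the 16 libraries, and a site call was 4 of 4 against 0 of 4. Scripts were tested on simulated data. Sites were named where at least 4 libraries held them, along with the strongest peak of each gene, and related genes where libraries differed by at least 3. RefSeq promoters matched 8 of the 10 genes and were not printed, and the sequence of 1 site is not reported here. The genes and lists were chosen with earlier results of these data known. Python 3.11.15, numpy 2.4.6, pandas 2.3.3, scipy 1.17.1 and matplotlib 3.10.9 were used. Alternatives covered the window, list length, q-value, overlap, replicate left out, scaling and a replicate block.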

Additional observations from a re-analysis of the deposited data

Results flagged for a closer look

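In 80 groups of 4 values, 10 had a library far from the other 3 by Dixon's criterion, and chance flags about 1 in 20. Counts of peaks are small whole numbers with many ties, which bears on this criterion. WT TE 3, the shortest list, had 0.0 peaks at Havcr2 where the others had 1.0 each, and 0.0 at Nr4a1 where the others had 2.0. WT TE 2, the longest WT TE list, had 1.0 peak at Tigit and 3.0 at Nr4a3 where the others had 0.0. TPdh-/- TE 4 had 3.0 genes with a promoter peak where the others had 1.0, and TPdh-/- TE 2 had 0.0 peaks at Havcr2 where the others had 2.0. WT TM 1 had a strongest Tox2 fold enrichment of 8.9 where the others had 4.97 to 5.48. TPdh-/- TM 2, with the longest list of all, held 9.0 of the 10 genes where the others held 10, Ctla4 being the one without a peak. TPdh-/- TM 3 had a density ratio of 1.78 where the others had 1.31, and TPdh-/- TM 4 had 6.0 peaks at Lag3 where the others had 2.0. In 40 pairs of comparisons no gene moved in opposite directions without overlap.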

How the results depend on the processing

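Differences in the number of libraries holding a gene were recomputed 640 times over the 10 genes, 4 comparisons and all alternatives, and 274 kept their direction, 79 were 0 both times, 93 became 0, 177 were 0 and gained a direction and 17 reversed. Leaving out a library changes such a difference by construction. Of the 640, 8 (Tox2 in both WT TE comparisons) lost the call and 1 (Nr4a1 for TE with a 5 kb window) gained it. For TPdh-/- TM against WT TM, reversals to -1.0 library were Nr4a3 (promoters only), Tigit and Tox (both kinds of equal-sized list) and Tigit (−log10 q of at least 5). For TPdh-/- TE against WT TE they were Nr4a2 with -2.0 (promoters only) and Nr4a1 with -2.0 (equal-sized lists by q or by fold enrichment, and q of at least 5). For WT TM against WT TE, Havcr2 turned to 2.0 (5 kb window), 1.0 (promoters only) and 1.0 (starts of other genes left out, an alternative chosen after seeing the data), Pdcd1 to 1.0 (promoters only) and Ctla4 to 1.0 (q of at least 5). For TPdh-/- TM against TPdh-/- TE, Nr4a3 turned to -1.0 with both equal-sized lists. The cause was not tested.

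For genes called in TPdh-/- TE against WT TE and in WT TM against WT TE, all 3 measures fell to 0.0 genes with promoters only, equal-sized lists or q of at least 5. Libraries holding a peak also gave 0.0 with equal-sized lists by fold enrichment. These settings leave fewer peaks to test, and the cause of the fall was not tested. With a 5 kb window the TE counts became 2.0 by libraries and 2.0 by strongest peak, with Nr4a1 added to Tox2, and 3.0 by number of peaks (Tox, Tox2 and Nr4a1), as with a 50 kb window (Tox, Tox2 and Pdcd1). The share of all genes called was recorded only with 20 kb windows, all peaks and all libraries. For TE it was 4.98% by libraries, 8.35% by strongest peak and 11.5% by number of peaks. Counts of called genes under the alternatives thus have no share of all genes beside them. In the TM comparison number of peaks called 1.0 gene with a 5 kb window (Tox2) and 1.0 with a 50 kb window (Pdcd1), where the 20 kb window called 6.55% of all genes. TPdh-/- TM against TPdh-/- TE called 1.0 by strongest promoter peak (Tigit), where the strongest peak in the 20 kb window called 2.84% of all genes. Scaled to peaks per 10000, the TE comparison called Tox2 higher and Lag3 lower and no longer called Tox. The mean difference in genes held per library, 2.75 for TM, became 0.25 with either equal-sized list and 1.5 with q of at least 5. For TE, 3.25 became 0.5 with promoters only, -0.75 and -0.5 with equal-sized lists by q and by fold enrichment, and 0.25 with q of at least 5. For WT TM against WT TE, 1.25 became -1.0 and -0.75 with those lists, 0.5 with q of at least 5, 2.25 with a 5 kb window and 2.0 with starts of other genes left out. For TPdh-/- TM against TPdh-/- TE, 0.75 became 2.0 with a 5 kb window, 0.25 with a 50 kb window, 3.0 with promoters only, 1.75 with q of at least 5 and 0.0 with either equal-sized list. Leaving out 1 library moved the same 4 differences to between 1.75 and 3.75 for TM, 2.33 and 4.33 for TE, 0.25 and 2.33 for WT TM against WT TE, and 0.417 and 1.08 between the TPdh-/- groups.

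Leaving out 1 library each in turn gave 0.0 to 1.0 genes by number of peaks and 0.0 to 2.0 by strongest peak for TM (without WT TM 1, Pdcd1 and Havcr2 passed by strongest peak and Havcr2 by number, and Tox2 passed by number without TPdh-/- TM 1, Ctla4 without TPdh-/- TM 2). The TE range by number was 0.0 to 3.0, with 1.0 (Tox) without WT TE 1 or 2, 0.0 without WT TE 3 or 4, and 3.0 without TPdh-/- TE 2 (Havcr2 added). For WT TM against WT TE the ranges were 1.0 to 2.0 by number (Tox added without WT TM 3) and 1.0 to 2.0 by strongest peak (Pdcd1, lower in TM, added without WT TM 1). Between the TPdh-/- groups it was 0.0 to 1.0 by strongest peak, with Tox without TPdh-/- TE 3 and Nr4a3 without TPdh-/- TE 4. Sites held by one group alone ranged from 0.0 to 1.0 in each comparison: the Tigit promoter counted in TM without WT TM 1 and between the TPdh-/- groups without TPdh-/- TE 1, Nr4a1 -7.84 kb in both WT TE comparisons without WT TE 3, and Nr4a3 -2.12 kb between the TPdh-/- groups without TPdh-/- TM 1. The half-overlap rule cannot change a site count, since a peak always lies inside its merged region.

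Replicate numbers are shared between groups. Same-numbered libraries correlated at -0.053 to 0.183 in their deviations, the 0.183 being replicate 3 of WT TM against WT TE. The highest correlation with another number ran from -0.00187 to 0.102 over the same libraries. The numbers were not taken to pair the libraries. With a replicate block the counts by number of peaks and by strongest peak were 0.0 in every comparison, since 4 pairs cannot give a p below 0.125. Background coverage was higher in each WT TE library (lowest 0.636) than in any other library (highest 0.572), and its part in a missing peak was not tested.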
